A study of Mus musculus with 28 samples.

Results

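Mt1, Mt2 and Mt3, the metallothioneins with a signal called on in some of these cells, were followed across single Müller glial cells (MGCs) of the mouse retina, together with Mtf1, the zinc-sensing transcription factor that drives metallothionein genes, and Slc30a1, the zinc exporter ZnT1 of the plasma membrane. They are 5 of 18194 genes that had a probe set with a single gene symbol, and they were chosen by name. The study picked single MGCs by their shape from dissociated retinas and hybridized the amplified cDNA of each to a microarray, to describe glial gene expression while photoreceptors die. Rhod-ko retinas, which lack the rod pigment gene rhodopsin in every cell and are on the C57/BL6 strain, contributed 5 cells aged 25 weeks and 5 aged 8 weeks. The rd1 mice, which are FVB and carry a mutation in the beta subunit of the rod cGMP phosphodiesterase, contributed 4 cells aged 5 weeks and 5 from postnatal day 13 (P13). The controls were 5 adult wild type (WT) cells of C57/BL6 mice labelled as older than 25 weeks (the study's text gives a younger minimum age), and 3 P13 cells of congenic FVB mice (FVB.129P2-Pde6b+Tyrc-ch/AntJ), in which that phosphodiesterase gene is intact. The mutant and congenic retinas came from several litters. None of the mice carried a transgene or received a treatment that the labels state. The labels name no animal, so each condition counts as 1 sample of several cells, no test between conditions was run, and differences were read by a rule of size.

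Metallothioneins are small cysteine-rich proteins that hold zinc and copper and take up reactive oxygen. When cytosolic zinc goes up, Mtf1 binds metal response elements in the promoters of Mt1, Mt2 and Slc30a1, and the transcription of these genes increases. Mt1 and Mt2 lie side by side and are also induced by glucocorticoids, cytokines and oxidative stress, whereas Mt3 is the form best known from brain and is described as poorly induced by metals.

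The promoter sequences are shown because the metal response element is the known route from zinc to these genes. Each window runs from 250 bases before to 50 bases after the start site that RefSeq lists on build GRCm38.p6. The core of the metal response element was searched as TGCGCNC or TGCACNC on both strands, and matches are in capitals. The windows were Mt1 at chr8:94178839-94179138, Mt2 at chr8:94172368-94172667, Mt3 at chr8:94152357-94152656 and Slc30a1 at chr1:191906531-191906830, all on the plus strand.
Mt1: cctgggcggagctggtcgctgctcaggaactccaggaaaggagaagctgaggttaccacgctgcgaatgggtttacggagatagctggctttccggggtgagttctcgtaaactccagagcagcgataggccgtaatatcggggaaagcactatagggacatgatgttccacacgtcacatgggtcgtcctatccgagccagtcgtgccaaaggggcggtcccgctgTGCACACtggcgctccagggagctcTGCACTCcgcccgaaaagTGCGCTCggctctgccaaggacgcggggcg
Mt2: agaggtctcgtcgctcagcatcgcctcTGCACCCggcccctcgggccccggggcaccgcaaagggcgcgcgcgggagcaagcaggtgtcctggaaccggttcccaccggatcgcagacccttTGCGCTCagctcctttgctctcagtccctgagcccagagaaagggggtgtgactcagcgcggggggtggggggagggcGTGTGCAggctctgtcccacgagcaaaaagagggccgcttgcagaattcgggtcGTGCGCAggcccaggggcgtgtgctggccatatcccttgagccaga
Mt3: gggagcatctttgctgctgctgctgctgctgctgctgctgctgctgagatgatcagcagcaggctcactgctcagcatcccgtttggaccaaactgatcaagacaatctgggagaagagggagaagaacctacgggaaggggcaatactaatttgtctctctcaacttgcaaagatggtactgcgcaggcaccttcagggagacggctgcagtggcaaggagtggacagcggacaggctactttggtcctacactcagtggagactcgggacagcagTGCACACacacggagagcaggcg
Slc30a1: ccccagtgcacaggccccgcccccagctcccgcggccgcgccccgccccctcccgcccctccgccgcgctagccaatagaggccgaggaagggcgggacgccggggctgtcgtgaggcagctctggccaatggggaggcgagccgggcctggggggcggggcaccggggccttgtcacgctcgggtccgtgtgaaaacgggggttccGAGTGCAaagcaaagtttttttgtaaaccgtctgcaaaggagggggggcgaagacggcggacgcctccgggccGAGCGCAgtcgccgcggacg
Mt2 held 4 matches, and 0.517% of all 32851 promoter windows of this length held 4 or more. Mt1 held 3, as 1.97% of windows did or exceeded, and Slc30a1 held 2, with 7.11% of windows at 2 or more. Mt3 held 1 match, which 25.7% of windows had or exceeded, and the Mtf1 window at chr4:124802299-124802598 held 0. The letters of an antioxidant response element, TGACNNNGC, occurred 1 time each in Mt2 and Slc30a1, against at least 1 match in 12.4% of windows. The letters TTCNNNGAA of a STAT site were in none of the 5 members' windows and in 8.30% of all windows. A match is a description of the letters and not a measured binding site. The Mt1 matches began at -23, 3 and 21 from the start site that RefSeq lists, near the end of its window. Letters outside the windows were not searched, so the counts do not give all the elements of a promoter.

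All 28 arrays had the same trimmed mean of 500. The arrays labelled A5 and A6 among the rd1 cells at 5 weeks held 98.9% of 5554 probe sets within 2-fold of each other (r = 0.989), whereas none of the other 377 pairs passed 46.0% or r = 0.764, and their mean was used as 1 cell, named A5/A6, so that 27 cells were compared. Signals of 2000 and above were read as on. The MGC enzyme gene Glul and the filament gene Vim were on in all 27 cells. Of 19 MGC markers, 13 to 18 were on in the cells of every condition except the P13 retinas, where 6 to 16 were on in rd1 cells and 3 to 7 in congenic FVB cells. In 5 cells, namely A1 and B1 of rd1 at P13 and all 3 congenic FVB cells, 8 or 9 of 11 vascular markers were on, against 0 to 3 in the other 22 cells, and their marker make-up goes against the MGC label. These are called vascular-marker cells. Cell 7 of Rhod-ko at 8 weeks had 6 of 17 microglial and macrophage markers on, among them the receptor gene Csf1r at 118151, and no other cell had more than 1. Of 4 astrocyte markers, 0 to 3 were on in any cell. Of 13 rod markers, 7 and 8 were on in cells 8 and 7 of Rhod-ko at 8 weeks, 7 to 9 in rd1 cells at P13 and 5 to 10 in congenic FVB cells, against 0 to 3 in each of the other cells.

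Mt1 was on in 23 of 27 cells, and each Rhod-ko cell at 8 weeks had a higher signal than any cell of another condition. There it read 320242, 141008, 245928, 435101 and 659741 in cells 1, 2, 3, 7 and 8. At 25 weeks the Rhod-ko cells A1 to A5 had 41011, 15484, 30980, 15131 and 15371. These groups did not overlap, and within each group the highest cell was no more than 4.68 times the lowest. In rd1 at 5 weeks the Mt1 signal was 16572 in A1, 26268 in A5/A6, 26700 in A8 and 114081 in B1. At P13 the rd1 cells had 20112 in A4, 31925 in B3 and 26327 in B4, but 2317 in A1 and 2572 in B1. The low rd1 pair are the vascular-marker cells. Adult WT cells fell into a high and a low set, with 50199 in MG3 and 4614 in MG15 but 79.8 in MG1, 13.2 in MG16 and 132 in MG22. Congenic FVB cells had 6736 in A4, 4073 in A5 and 254 in A3.

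Mt2, the other ubiquitous metallothionein, was on in 18 cells and followed the same order at the top. In Rhod-ko at 8 weeks it read 213266, 134326, 166584, 231409 and 392459 in cells 1, 2, 3, 7 and 8. In Rhod-ko at 25 weeks A1 to A5 had 45051, 14176, 28615, 2802 and 178. A5 was thus off for Mt2 although its Mt1 signal was as high as in A2 and A4. The rd1 cells at 5 weeks had 12097 in A1, 14253 in A5/A6, 44949 in A8 and 28065 in B1. At P13 the rd1 signal was 9065 in A4, 23426 in B3 and 14393 in B4, against 1800 in A1 and 123 in B1. Again the vascular-marker cells were the low ones. In adult WT the signal was 17767 in MG1, 4362 in MG3, 1237 in MG15, 337 in MG22 and 193 in MG16, and the 3 congenic FVB cells were between 49.3 and 112.

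Mt3, the metallothionein known as growth inhibitory factor in brain, was on in 16 cells and kept another order. Rhod-ko cells 1, 2, 3, 7 and 8 at 8 weeks had 214906, 137799, 123959, 40228 and 72273. Rhod-ko cells A1 to A5 at 25 weeks had 6059, 1411, 6896, 2494 and 1519. Cells 7 and 8, which led for Mt1 and Mt2 at 8 weeks, were the lowest there for Mt3, and no Rhod-ko cell at 25 weeks reached the 8 week range. In rd1 at 5 weeks Mt3 was 2543 in A1, 311 in A5/A6, 3076 in A8 and 355 in B1. In rd1 at P13 it was 14500 in A4, 21834 in B3 and 26279 in B4, but 116 in A1 and 1061 in B1. The other 3 rd1 cells at P13, with 1 to 3 of 11 vascular markers on, were thus all above the rd1 cells at 5 weeks. Adult WT cells had 84216 in MG1, 18866 in MG16, 8199 in MG22, 190 in MG3 and 33.1 in MG15, and congenic FVB cells had 32.4 to 141.

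**Figure D1:**
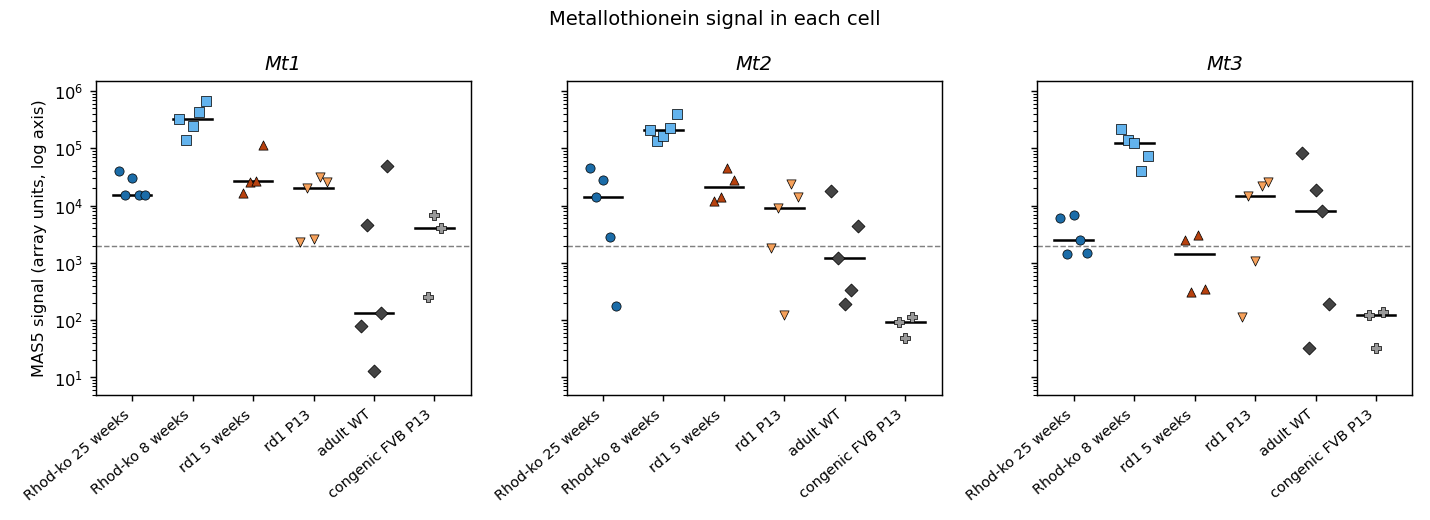
Signal of Mt1, Mt2 and Mt3 (array units, log axis) in each of 27 cells by condition, with a bar at the group median and a dashed line at 2000, the level called on. Rhod-ko cells at 8 weeks sit between 40228 and 659741 in all 3 panels, and adult WT cells spread from 13.2 to 84216.

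By group median, Mt1 ran from 320242 in Rhod-ko at 8 weeks through 26484 in rd1 at 5 weeks, 20112 in rd1 at P13, 15484 in Rhod-ko at 25 weeks and 4073 in congenic FVB to 132 in adult WT. Each neighbouring pair in this order overlapped except the first, in which the lowest Rhod-ko cell at 8 weeks (141008) was above the highest rd1 cell at 5 weeks (114081), and the pair of Rhod-ko at 25 weeks and congenic FVB, with a lowest and a highest cell of 15131 and 6736. For Mt2 the order was 213266 in Rhod-ko at 8 weeks, 21159 in rd1 at 5 weeks, 14176 in Rhod-ko at 25 weeks, 9065 in rd1 at P13, 1237 in adult WT and 91.9 in congenic FVB, and only the first and the last neighbouring pair did not overlap. For Mt3 it was 123959 in Rhod-ko at 8 weeks, 14500 in rd1 at P13, 8199 in the adult WT cells, 2494 in Rhod-ko at 25 weeks, 1449 in rd1 at 5 weeks and 122 in congenic FVB, again without overlap only in the first and last pair. All 3 genes were on together in 13 of 27 cells: 3 of 5 Rhod-ko cells at 25 weeks, 5 of 5 at 8 weeks, 2 of 4 rd1 cells at 5 weeks, 3 of 5 at P13, and 0 of 5 adult WT and 0 of 3 congenic FVB cells. Exact 95% binomial intervals, which cover counting error only, ran from 47.8% to 100% for Mt1 on in 5 of 5 cells and from 5.27% to 85.3% for 2 of 5.

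Mt1 rests on 2 probe sets that disagreed. The first, whose suffix s marks probes shared by several transcripts, gave the higher value in all 23 cells with Mt1 on. The other was on in 8 of them: A1 and A3 of Rhod-ko at 25 weeks (26390 and 12684), cells 1, 7 and 8 at 8 weeks (69630, 5473 and 9168), B1 of rd1 at 5 weeks (61166), B3 of rd1 at P13 (23024) and A4 of congenic FVB (3595). It read 233 and 361 in Rhod-ko cells 2 and 3 at 8 weeks, in which the first set read 141008 and 245928. Mt1 and Mt2 transcripts are alike, and what part of either signal came from the other was not tested. MG1 had an Mt2 signal of 17767 with Mt1 at 79.8, and congenic FVB cell A4 had an Mt1 signal of 6736 with Mt2 at 49.3. Mt2 and Mt3 each had 1 probe set. Mt4, the metallothionein of stratified epithelia, was measured between 2.5 and 194 and was on in 0 of 27 cells.

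Adult WT cells split Mt1 from Mt3 completely. The cells with Mt1 on, MG15 and MG3, were those with Mt3 off, and the cells with Mt3 on, MG1, MG16 and MG22, were those with Mt1 off. Such patterns were common in these 5 cells, since 219 of 1559 genes on in 2 cells (14.0%) shared the Mt1 pattern and 173 of 742 on in 3 cells (23.3%) shared that of Mt3. Mt2 was on in 1 cell of each kind, MG1 and MG3. The 3' to 5' ratio of Gapdh, a measure of the array, followed the same split. It was 0.654, 0.787 and 0.554 in MG1, MG16 and MG22, and 1.47 and 4.06 in MG15 and MG3. What part this had was not tested. Over all conditions, 10 cells had Mt1 without Mt3 on, 3 had Mt3 without Mt1, 13 had both and 1 neither.

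**Figure D2:**
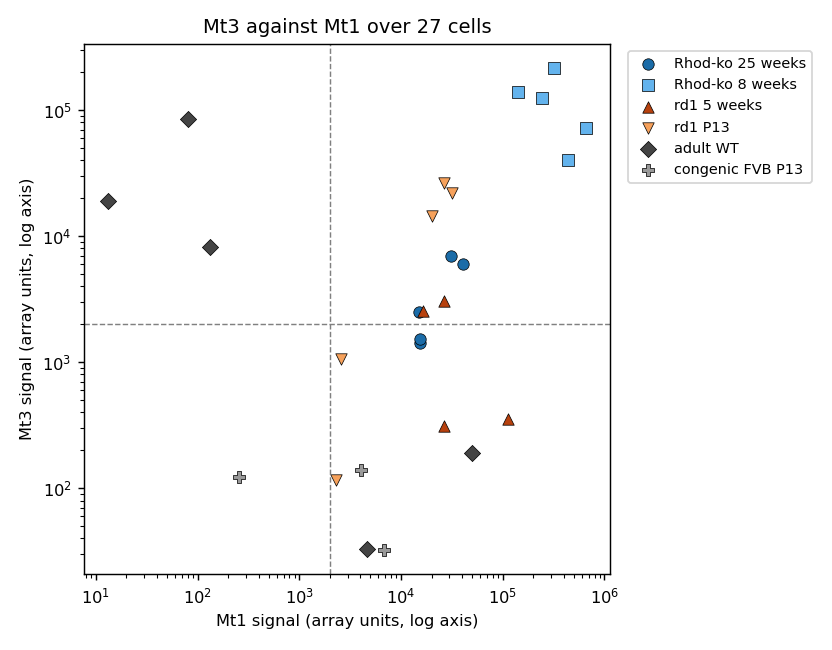
Mt3 signal against Mt1 signal (array units, both axes log) in 27 cells, with dashed lines at 2000. Only the 3 adult WT cells MG1, MG16 and MG22 lie at the upper left, with Mt3 on and Mt1 off, and the 5 Rhod-ko cells at 8 weeks lie apart at the upper right.

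Differences between conditions were taken between group medians of log2 signal after values under 1000 were set to 1000, and a gene was called higher or lower at 1 or more, which is 2-fold. Rhod-ko at 8 weeks against adult WT gave the largest differences. Mt1 was higher by 8.32 (320-fold) between medians, the largest of 18194 genes, with the adult WT median of 132 set to the floor, and by 6.74 between means of the floored log2 signal. Mt2 was higher by 7.43 (172-fold), the next in rank, and by 5.62 after quantile normalization, which gives all arrays 1 distribution. Neither overlapped between the groups, as was so for 0.907% of all genes higher. Mt3 was higher by 3.92 (15.1-fold), rank 113, with overlap, since MG1 at 84216 was above cells 7 and 8. By the second Mt1 probe set alone, a reading added after the data were seen, Mt1 was higher by 2.45, with the adult WT median at the floor. So 3 of 5 members were higher by the rule, against 6.17% of all genes. That share counts 14592 of 18194 genes that, like Mtf1 and Slc30a1, had both medians under the floor and could not be called. Over the comparisons such genes numbered 13206 to 14632, so each share of all genes given here is low for that reason. Without cell 7, the cell with microglial markers, the differences were 8.13, 7.25 and 3.99 for Mt1, Mt2 and Mt3. Rhod-ko arrays at 8 weeks also stood apart in themselves: their 100 brightest probe sets held 22.2% to 35.7% of the signal, against 13.4% to 24.6% in adult WT, and the 3' to 5' ratio of Gapdh was 3.95 to 18.2, against 0.554 to 4.06. What part these had in the metallothionein differences was not tested. Adult WT arrays came from an earlier study of the laboratory, so batch and condition cannot be told apart in any comparison with them.

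In Rhod-ko at 25 weeks against adult WT, Mt1 was higher by 3.95 (15.5-fold, rank 37) between medians, again with the adult WT median at the floor, and by 2.85 between means of the floored log2 signal. Mt2 was higher by 3.52 (11.5-fold, rank 64), among 7.9% of all genes called higher. Mt3 was lower, at -1.72 (3.29-fold), among 3.7% called lower. By the second Mt1 probe set alone the difference was 0.83, under the rule, with the adult WT median at the floor. With each array scaled to the same 90th percentile, Mt2 was higher by 2.36 (rank 171) and Mt3 lower, at -3.60 (rank 166 from the lowest). All 3 overlapped between the groups, and MG3 had more Mt1 than any Rhod-ko cell at 25 weeks. The Mt3 call rests on single cells: it was -0.20 without MG1 or MG16, -0.80 without MG22, and -1.08 without A2 or A5 of Rhod-ko.

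The later Rhod-ko stage set against the earlier had all 3 metallothioneins lower. At 25 weeks against 8 weeks Mt1 was lower, at -4.37 (20.7-fold), Mt2 at -3.91 (15.0-fold) and Mt3 at -5.64 (49.7-fold). The call covered 4.16% of all genes, and 0.896% were lower without overlap, as all 3 were. With the second Mt1 probe set alone Mt1 was at -1.62. From the lowest difference upward, Mt3 ranked 3, Mt1 18 and Mt2 30 of 18194. After quantile normalization Mt1 was at -2.69 (rank 183) and Mt2 at -2.05 (rank 385), while Mt3 ranked 3 again. The 25 week cells had 0 to 2 rod markers on, against 1 to 8 at 8 weeks, and their 100 brightest probe sets held 9.40% to 10.5% of the signal, with Gapdh 3' to 5' ratios of 1.17 to 2.05. What part these had was not tested. This comparison and both set against adult WT share groups, so they are not independent of each other.

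In rd1 at 5 weeks against adult WT, which also differ in strain, Mt1 was higher by 4.73 (26.5-fold, rank 14) between medians, with the adult WT median at the floor, and by 3.51 between means. Mt2 was higher by 4.01 (16.2-fold, rank 38), with 6.35% of all genes called higher. Mt3 was lower, at -2.36 (5.14-fold), with 4.25% called lower. The groups overlapped for each. By the second Mt1 probe set alone the difference was 0, which the floor fixed, since both medians were under it. The Mt3 value was -0.84 without MG1 or MG16 and -1.45 without MG22. Against the younger congenic FVB cells Mt1 was higher by 2.70 and Mt2 by at least 4.32, and the Mt3 difference was 0.67, under the rule. Those 3 congenic cells each had 8 or 9 of 11 vascular markers on and Mt3 off.

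In rd1 at P13 against congenic FVB, Mt1 was higher by 2.30 (4.94-fold), Mt2 by at least 3.18 (at least 9.06-fold) and Mt3 by at least 3.86 (at least 14.5-fold, rank 7). The rule held for 4.79% of all genes. Mt2 did not overlap, as was so for 0.55% of all genes higher, but its margin was narrow, with the lowest rd1 cell at 123 and the highest congenic cell at 112. All 3 congenic cells, and the 2 rd1 cells lowest for each metallothionein, were vascular-marker cells. No value can be had without such cells, and cell type and condition cannot be told apart here. Leaving out B3 or B4, which are not among them, gave 0.82 for Mt1, 2.01 for Mt2 and 1.97 for Mt3. The second Mt1 probe set alone gave 0, again fixed by the floor, with both medians under it. Without A4, Mt1 was 1.01 and Mt3 2.27.

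The 2 rd1 stages differed mainly in Mt3. At 5 weeks against P13 Mt3 was lower, at -3.18 (9.09-fold), rank 21 from the lowest difference, with 5.78% of genes called lower. It was -3.78 without the P13 vascular-marker cells, -1.30 without B3 or B4 and -1.59 without A4. Mt1 differed by 0.40, under the rule, and Mt2 was higher by 1.14 (2.21-fold), with 4.12% called higher. Mt2 fell short of the rule without A8 or B1 of the 5 week cells (0.65), without A1 or B1 at P13 (0.81), and without the vascular-marker cells (0.47), and it was 1.97 without A4 and 2.31 without B3 or B4 at P13. Mt1 passed it, at 1.69 or 1.88, without A4, B3 or B4 at P13. Rod markers were on in 7 to 9 of 13 at P13 and in 0 to 3 at 5 weeks, and their part was not tested.

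**Figure D3:**
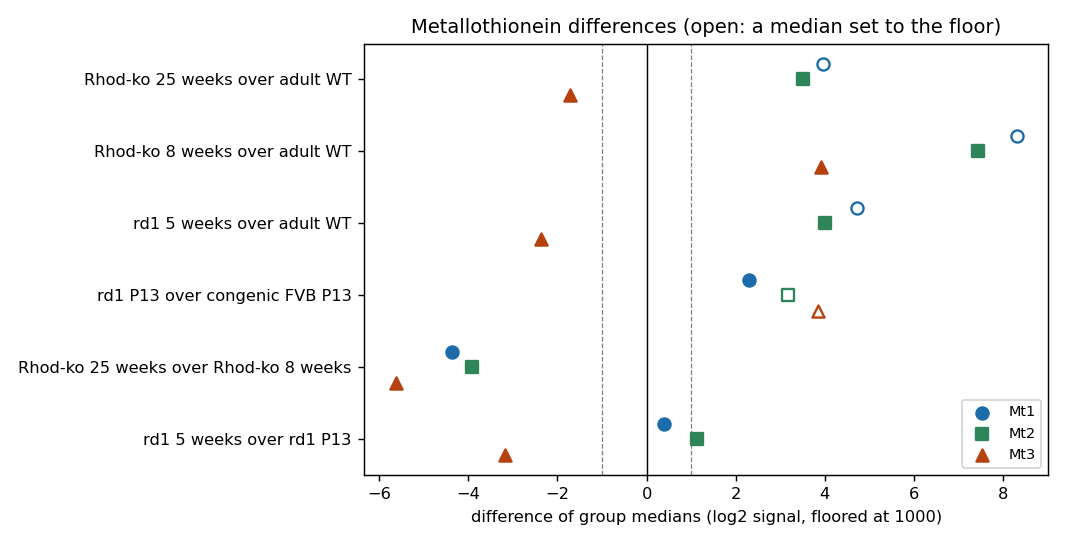
Difference of group medians (log2 signal floored at 1000) for Mt1, Mt2 and Mt3 in 6 comparisons, with dashed lines at 1 either way. Open symbols have 1 of the medians under 1000 and set to it, and Mt3 points the other way from Mt1 and Mt2 in 2 of the comparisons with adult WT, those of Rhod-ko at 25 weeks and of rd1 at 5 weeks.

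Mtf1, which senses zinc for the metallothionein genes, was on in 5 of 27 cells, and its group medians were all under the floor of 1000. It was on in MG1 and MG22 of adult WT (8009 and 9255), A4 and A1 of rd1 at P13 (8985 and 2573) and B1 of rd1 at 5 weeks (4903). The 10 Rhod-ko cells had 58.7 to 1812, so that the cells with the most Mt1 had Mtf1 off. The calls came from 2 of its 5 probe sets, which gave 4 and 1 of them, and no fold was given where both medians were under the floor.

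Slc30a1, which moves zinc out of the cell, was on in 10 cells, among them all 5 vascular-marker cells. In congenic FVB it read 10991 in A3, 2073 in A4 and 12495 in A5. Of the rd1 cells at P13, A1 and B1 had 10669 and 13088, B4 had 2535, and B3 and A4 were off. In adult WT, MG15 had 15460 and MG16 had 9120, and the other 3 had 120 to 326. The remaining cells on were A2 of Rhod-ko at 25 weeks (2950) and cell 7 at 8 weeks (2338), while no rd1 cell at 5 weeks was on. Of the 5 vascular-marker cells, Slc30a1 was on in 5, Mt1 in 4, Mt2 in 0 and Mt3 in 0. Of the other 22 cells, Slc30a1 was on in 5, Mt1 in 19, Mt2 in 18 and Mt3 in 16. In rd1 at P13 against congenic FVB, Slc30a1 was lower, at -2.12 (4.34-fold), with 6.41% of genes called lower and with overlap. It was -0.91 without A5 of congenic FVB, -1.01 without A3, and -1.08 without A4 or B3 of rd1. In rd1 at 5 weeks against P13 it was lower, at -1.34 (2.53-fold, with the 5 week median at the floor), and at -0.66 without the vascular-marker cells, -2.38 without A4 or B3 and -2.04 without B4 of P13. In the 4 other comparisons both medians were under the floor.

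**Figure D4:**
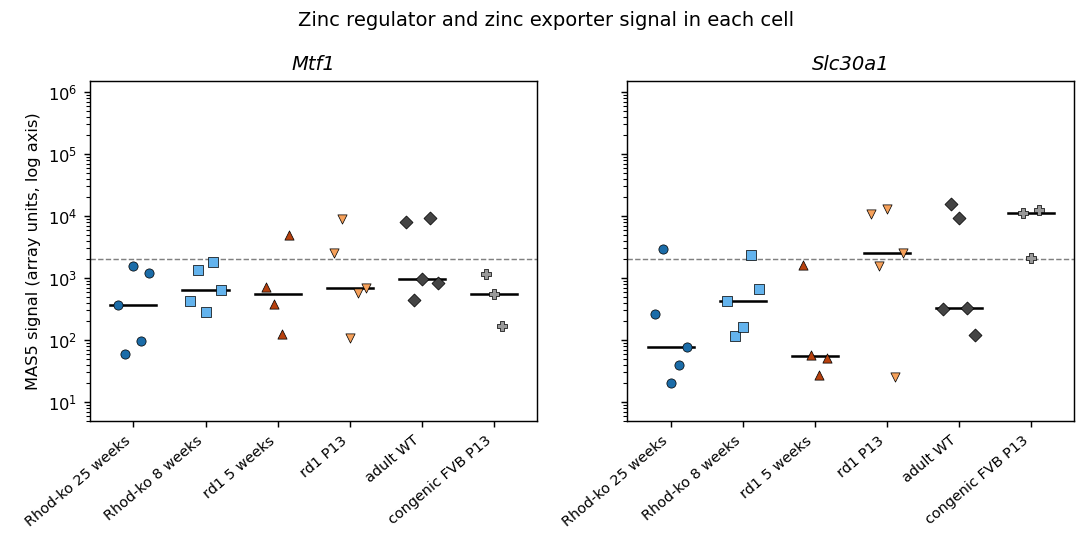
Signal of Mtf1 and Slc30a1 (array units, log axis) in each of 27 cells by condition, with a bar at the group median and a dashed line at 2000. Mtf1 is on in 5 cells, none of them Rhod-ko, and Slc30a1 is on in all 3 congenic FVB cells.

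**Figure D5:**
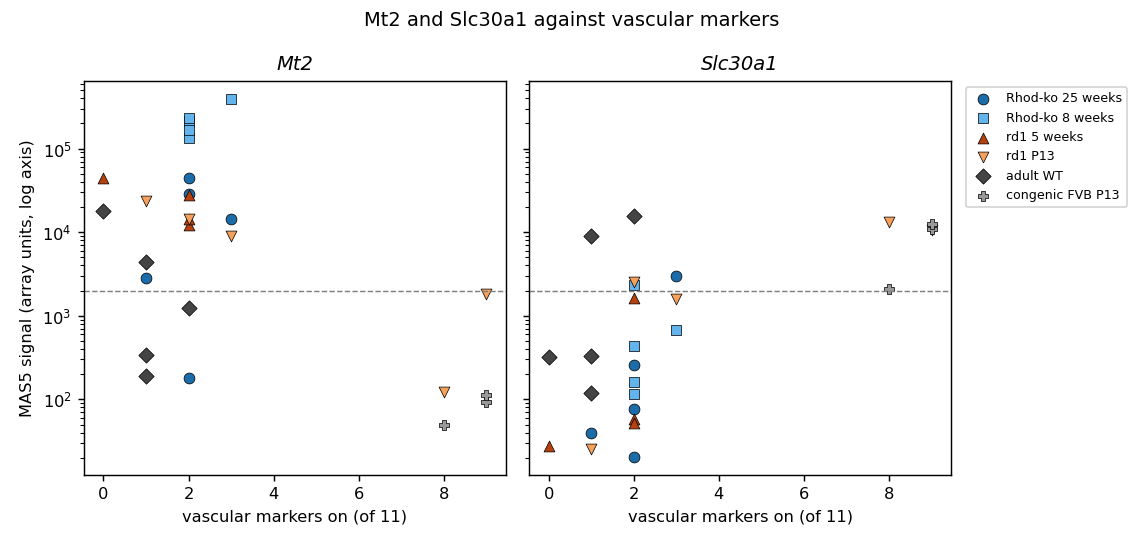
Signal of Mt2 and Slc30a1 (array units, log axis) against the number of 11 vascular markers on, for 27 cells. The 5 cells with 8 or 9 markers on have Mt2 under 2000 and Slc30a1 at 2073 or more.

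Correlations were computed over cells on log2 signal floored at 100 and are descriptions, since cells share their condition and amplification. Over 27 cells Mt1 and Mt2 had r = 0.74, Mt2 and Mt3 r = 0.66 and Mt1 and Mt3 r = 0.31. After each condition's median was taken away, these became 0.39, 0.31 and -0.30. Without the 5 Rhod-ko cells at 8 weeks they were 0.57, 0.43 and -0.15 over 22 cells. The r of Mt1 and Mt3 was thus negative in both settings, but conditions differed. In adult WT the cells with Mt1 on had Mt3 off, and in Rhod-ko at 8 weeks cells 7 and 8 were highest for Mt1 and lowest for Mt3. In rd1 at P13, by contrast, A1 and B1 were lowest for both genes (Mt1 2317 and 2572, Mt3 116 and 1061). In Rhod-ko at 25 weeks A1 and A3 were highest for both. The r of Mt1 and Mt2 stayed positive after condition medians and without Rhod-ko at 8 weeks. Gfap, the filament gene that marks reactive glia, had r = 0.52, 0.52 and 0.47 with Mt1, Mt2 and Mt3, and 0.22, -0.01 and 0.24 after condition medians were taken away. Slc30a1 had r = -0.43, -0.51 and -0.34 with them, and -0.04, -0.25 and -0.26 after condition medians. Mtf1 had r = -0.25, 0.03 and 0.17.

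Among 5225 other genes on in at least 5 cells, those most like Mt1 by r over 27 cells were Crym (0.88), a thyroid hormone-binding crystallin, Pdpn (0.85), a surface mucin-like protein, Rlbp1 (0.85), the retinaldehyde carrier of MGCs, Mfge8 (0.83), a bridge to phagocytes, and Plekhb1 (0.83). All 5 were on in MG15 and MG3 and off in MG1, MG16 and MG22, the adult WT split of Mt1. The ranking used these same cells, so a split shared with a metallothionein, here and below, is part of the ranking and no separate result. Rlbp1, for example, had 109338 in MG15 and 149346 in MG3, against 22.2, 24.5 and 147 in MG1, MG16 and MG22. Least like Mt1 were Ppic, a cyclophilin (-0.76), and Tnpo1, a nuclear import receptor (-0.74). After condition medians were taken away, the 5 genes most like Mt1 had r of 0.82, 0.81, 0.83, 0.83 and 0.78. Ppic and Tnpo1 then had -0.78 and -0.61. Mt2 itself ranked 22 for likeness to Mt1, and Mt3 ranked 847.

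The genes most like Mt2 were Gstt1, a glutathione transferase (0.88), Cnp, a nucleotide phosphodiesterase of myelinating glia (0.85), Serping1, the C1 inhibitor of complement (0.81), Clu, a secreted chaperone (0.80), and Pebp1, an inhibitor of Raf (0.80). After condition medians were taken away, their r was 0.81, 0.66, 0.43, 0.40 and 0.53. Gstt1 was on in the same adult WT cells as Mt2, MG1 (9490) and MG3 (2457), and off in A5 of Rhod-ko at 25 weeks (255), where Mt2 was off too. Of the Rhod-ko cells, 4 of 5 at 25 weeks and 5 of 5 at 8 weeks had Serping1 on, against 0 of 5 adult WT cells. Least like Mt2 were Ctnnb1, beta-catenin (-0.70), and Cd34, a sialomucin of blood vessel lining (-0.68), which was on in 5 cells, all of them vascular-marker cells. After condition medians Ctnnb1 had -0.25 and Cd34 -0.50. The genes most like Mt3 were Pebp1 (0.76), Anapc13, a subunit of the anaphase-promoting complex (0.76), BC064078 (0.72), Ngfr, the low-affinity neurotrophin receptor p75 (0.72), and Clu (0.71). After condition medians their r was 0.48, 0.32, 0.41, 0.59 and 0.44. Ngfr had 11984, 16192 and 6991 in MG1, MG16 and MG22, the adult WT cells with Mt3 on, against 359 in MG15 and 2118 in MG3. Least like Mt3 were Tjp1, the tight junction scaffold ZO-1 (-0.77), and Sat1, which acetylates polyamines (-0.73), both on in MG15 and MG3 and off in MG1, MG16 and MG22. Tjp1 had -0.71 and Sat1 -0.60 after condition medians.

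The other genes of zinc transport were counted by family. Of all genes, 7.9% were higher and 3.7% lower in Rhod-ko at 25 weeks against adult WT. At 8 weeks these shares were 6.17% and 5.12%, and in rd1 at 5 weeks 6.35% and 4.25%. In rd1 at P13 against congenic FVB they were 4.79% and 6.41%. Of 10 Slc30a exporters, 4 were on in no cell. In Rhod-ko at 25 weeks against adult WT 1 was higher and 1 lower: Slc30a7, which loads zinc into the secretory pathway, had medians of 2694 and 124, and Slc30a9 2966 and 6585. Slc30a9 was also the only exporter called in Rhod-ko at 8 weeks (404, with 5.12% of all genes called lower) and in rd1 cells of 5 weeks (1221), lower in both, and 0 were higher. In rd1 at P13 against congenic FVB, Slc30a1, Slc30a4 and Slc30a5 were lower and 0 were higher. Of 14 Slc39a importers, 2 were on in no cell, and against adult WT Slc39a9 was the only one lower in all 3 comparisons, with medians of 117 in Rhod-ko at 25 weeks, 589 at 8 weeks and 187 in rd1 at 5 weeks, against 7927 in adult WT. Slc39a10 was lower in both Rhod-ko stages, and Slc39a7, which releases zinc from the endoplasmic reticulum, was higher in Rhod-ko at 25 weeks (4526 against 25.5). In rd1 at P13 against congenic FVB 2 importers were higher and 3 lower, the largest being Slc39a8 (55.6 against 9652). At the later stage against the earlier, 2 exporters and 1 importer were higher in Rhod-ko (7.33% of all genes were), and 2 exporters and 3 importers were lower in rd1 (5.78% of all genes were). The median difference of both lists was 0 in every comparison, with both medians under the floor for 5 to 9 of the exporters and 7 to 10 of the importers. Over all 18194 genes it was 0 too, fixed by the 13206 to 14632 genes with both medians under the floor.

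Beside the counts below, 7.9% of all genes were higher and 3.7% lower in Rhod-ko at 25 weeks against adult WT. The shares were 6.17% and 5.12% at 8 weeks, and 6.35% and 4.25% in rd1 at 5 weeks. For rd1 at P13 against congenic FVB they were 4.79% and 6.41%. Of 6 other reported Mtf1 targets, 2 were higher in Rhod-ko at 25 weeks (Ndrg1 and Pgf) and 2 at 8 weeks (Ndrg1 and Selenow) against adult WT. None was called in rd1 at 5 weeks, and the iron exporter Slc40a1 was lower in rd1 at P13 against congenic FVB (91.3 against 3768). Selenow, a selenoprotein, was on in all 27 cells. Its median was highest in Rhod-ko at 8 weeks, with 16901 at 25 weeks and 57551 at 8 weeks, against 24699 in adult WT. Unlike Mt1, its 8 week cells (14640.5 to 95262) overlapped those of adult WT (9112 to 36820), and the highest cell was in rd1 at 5 weeks (96091). Of 10 genes of copper handling, 3 were higher in Rhod-ko at 8 weeks, namely the superoxide dismutase Sod1 (110601 against 30641), the copper chaperone Atox1 (8622 against 2843) and Ccs, the chaperone of Sod1 (4612 against 63.6), and Slc31a2 was lower. Cox17 was the 1 gene higher in Rhod-ko at 25 weeks and Atox1 the 1 in rd1 at 5 weeks, and in rd1 at P13 2 were higher, with ceruloplasmin, Cp, at 7483 against 627, and 2 lower. At 25 weeks against 8 weeks in Rhod-ko, Sod1, Atox1 and Ccs were lower, as the metallothioneins were, Cox17 was higher, and 1 Mtf1 target was higher and 1 lower. Of all genes, 7.33% were higher and 4.16% lower in that comparison. At 5 weeks against P13 in rd1, 1 gene of each list was lower, beside 5.78% of all genes.

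Genes of other inputs known to act on Mt1 and Mt2 were described in the same way. Against adult WT, 7.9% of all genes were higher and 3.7% lower in Rhod-ko at 25 weeks, and 6.17% and 5.12% at 8 weeks. In rd1 these shares were 6.35% and 4.25% at 5 weeks, and 4.79% and 6.41% at P13 against congenic FVB. Of 10 glucocorticoid-responsive genes, 4 were higher and 1 lower in Rhod-ko at 25 weeks against adult WT, led by the phosphatase gene Dusp1 (28604 against 321), and 0 were higher and 1 lower at 8 weeks. The list had a median difference of 0.90 at 25 weeks and 0 at 8 weeks. The floor fixed that 0, since Fkbp5, Tsc22d3, Sgk1, Per1, Zbtb16, Dusp1 and Errfi1 had both medians under 1000 at 8 weeks. Both were under it for Fkbp5, Sgk1 and Zbtb16 at 25 weeks too. The median over all genes was 0 but is no background here. The floor fixed it, since both medians were under 1000 for 14411 of 18194 genes at 25 weeks and 14592 at 8 weeks. The receptor gene Nr3c1 was the gene lower in both (532 at 25 weeks and 463 at 8 weeks, against 4385). In rd1 at 5 weeks 1 was higher and 1 lower, and in rd1 at P13 0 were higher and 2 lower. Of 10 genes of gp130 and Stat3 signalling, 5 were higher at 25 weeks, 4 at 8 weeks and 3 in rd1 at 5 weeks against adult WT, and 0 were lower. The list medians were 1.04, 0.53 and 0. The oncostatin M receptor gene Osmr (5877, 8991 and 9631 against 50.8) and the CNTF receptor gene Cntfr (4482, 5002 and 3375 against 183) were higher in all 3. Socs3 led the list at 25 weeks (9678 against 203), but its median was 663 at 8 weeks and 81.1 in rd1 at 5 weeks, with 0 cells on in either. Stat3 had medians of 3849 at 25 weeks, 1081 at 8 weeks and 5894 in rd1 at 5 weeks, against 438, and was not called at 8 weeks. Il6st, which encodes gp130 itself, had medians of 8346 at 25 weeks and 20085 at 8 weeks, against 8411 in adult WT. Serpina3n, an acute-phase inhibitor, had medians of 3794 at 25 weeks and 17170 at 8 weeks, against 43.4 in adult WT, and was the 1 gene higher in rd1 at P13. Of 9 genes of the Nrf2 oxidative stress response, 3 were on in no cell, 3 were higher at 25 weeks (Txnrd1, Srxn1 and Txn1, of the thioredoxin system) and 0 were higher in the 3 other comparisons with a control. Gclm, of glutathione synthesis, was lower in each comparison with adult WT. At the later stage against the earlier, 5 glucocorticoid-responsive, 2 gp130 and 3 Nrf2 genes were higher in Rhod-ko and 2 gp130 genes lower. In rd1 2 gp130 genes were higher and 3 glucocorticoid-responsive and 2 Nrf2 genes lower. Of all genes, 7.33% were higher and 4.16% lower in that Rhod-ko comparison, and 4.12% and 5.78% in that of rd1.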

How the data were processed

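Single MGCs were lysed, the RNA was reverse transcribed from an oligo dT primer, and the cDNA was amplified by 35 cycles of PCR and hybridized to Affymetrix 430 2.0 arrays. The authors deposited MAS 5.0 signal intensities on a linear scale, which they scaled to the same trimmed mean on each array. Of 45101 probe sets, 34958 carry 1 gene symbol in the array annotation, 932 several and 9211 none, and only the first kind was used. For each gene the brightest probe set of a cell was taken, following the study's methods. The cells were grouped by their titles. Since each array is 1 cell and cells of a retina pass through amplification singly, a lower signal can come from less RNA or from loss in amplification, and array number limits the precision. Group medians were compared after flooring at 1000, with 2-fold as the rule of size. The members, gene lists and named-gene rule (members, 5 most and 2 least like genes for each metallothionein, and up to 4 called genes per list and comparison) were chosen with earlier results of these data known. Other floors, thresholds, scalings, group means, 1 probe set per gene, another control and leaving out cells were tried. The steps were tested on simulated data. Promoter windows came from RefSeq. Python 3.11.15, NumPy 2.4.6, pandas 2.3.3, SciPy 1.17.1 and matplotlib 3.10.9 were used.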

Additional observations from a re-analysis of the deposited data

Results flagged for a closer look

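Slc30a1 in cell A2 of Rhod-ko at 25 weeks had a signal of 2950.2, far from the other cells of its group, the next of which read 261 (gap over range 0.717, critical value 0.71). Slc30a1 in cell A1 of rd1 at 5 weeks had 1624, against 57.7 in the next (gap over range 1.00, critical value 0.829). The gaps were taken on log2 signal floored at 100, where the other 3 rd1 cells all sit at the floor. The gap over range of that group was thus 1.00 for any signal of A1 above the floor. In Rhod-ko at 25 weeks, A3, A4 and A5 also sit at the floor (20.5, 39.3 and 77.3). Of 25 groups, 2 were marked. The rate of about 1 in 20 groups by chance does not hold for floored values, so these marks are descriptions.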

How the results depend on the processing

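No paired analysis was possible because no test was run and the cell labels carry no animal shared between conditions. Each condition has 3 to 5 cells, each on 1 array except A5/A6 of rd1, averaged over 2, so cell-to-cell spread and amplification cannot be told apart. Over the alternatives, which pool differences, counts of cells on and correlations, 278 values were labelled as kept, 40 as moved and 3 as reversed. Of the differences with 1 cell left out, 260 were labelled as kept and 20 as moved. A difference was labelled as kept if it stayed within the pooled spread of the cells and, where called, did not change sign. It could thus lose its call, and a difference under the rule could change sign. Counts and correlations had limits of their own. The cause of the changes was not tested. With the second Mt1 probe set alone, a setting chosen after seeing the data, the Mt1 difference was 0.83 in Rhod-ko at 25 weeks, 2.45 at 8 weeks and 0 in rd1 at 5 weeks against adult WT, 0 in rd1 at P13 against congenic FVB and -1.62 in Rhod-ko at 25 against 8 weeks. The floor fixed each 0, since both medians were under it, and 0.83 and 2.45 had the adult WT median at the floor. Under quantile normalization Mt2 in Rhod-ko at 8 weeks against adult WT was 5.62, and in Rhod-ko at 25 against 8 weeks Mt1 was -2.69 and Mt2 -2.05. Set against congenic FVB instead of adult WT, rd1 at 5 weeks had an Mt3 difference of 0.67. At a threshold of 10000 Mt1 was on in 3 cells of rd1 at P13, 1 of adult WT and 0 of congenic FVB, Mt2 in 1 of adult WT, and Mt3 in 0 of Rhod-ko at 25 weeks and 0 of rd1 at 5 weeks. At 1000 Mt3 was on in 5 cells of Rhod-ko at 25 weeks, and with the same 90th percentile on each array Mt1 was on in 3 of rd1 at P13 and Mt3 in 1 of rd1 at 5 weeks. The r of Mt1 and Mt2 was 0.82 with a floor of 500, 0.83 as Spearman rho, 0.39 after condition medians and 0.57 without Rhod-ko at 8 weeks (chosen after seeing the data). That of Mt1 and Mt3 was -0.30 after medians, 0.091 without the vascular-marker cells and cell 7 and -0.15 without Rhod-ko at 8 weeks, and that of Mt2 and Mt3 was 0.31, 0.47 and 0.43 in the same settings. Leaving out each cell in turn gave Mt3 values of -3.86 to -1.30 in rd1 at 5 weeks against P13. Against adult WT the ranges for Mt1, Mt2 and Mt3 were 2.85 to 4.45, 2.35 to 4.03 and -2.32 to -0.20 in Rhod-ko at 25 weeks, 7.22 to 8.54, 6.52 to 7.58 and 3.32 to 5.44 at 8 weeks, and 3.62 to 4.74, 3.11 to 4.50 and -3.04 to -0.84 in rd1 at 5 weeks. Mtf1 and Slc30a1, with both medians under the floor, reached -1.50 (without MG15, MG16 or MG3) and -1.59 (without MG1, MG22 or MG3) in those comparisons. Of genes called in Rhod-ko at 25 weeks against adult WT 68.1% were higher as deposited, 56.4% after quantile normalization and 40.6% with the same 90th percentile, in Rhod-ko at 25 against 8 weeks 63.8%, 46.4% and 40.7%, and in rd1 at 5 weeks against P13 41.6%, 49.3% and 69.3%.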
